A study of Mus musculus with 4 samples.

Results

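Type I interferon-stimulated genes were followed in injured mouse abdominal aorta, as a list of 35 genes among the 37074 gene names on the array. A gene entered the tests through its brightest probe, once that probe exceeded background clearly on 2 or more arrays. By this rule 34 of the 35 genes were tested, within a table of 22498 tested genes. Oas3 was the gene left out, because its only probe was not well above background on any array (log2 levels of -5.50 and -6.34 on the arrays labelled SR-A1-/-, against -6.04 and -6.16 on the arrays labelled wild type).

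The arrays labelled SR-A1-/- (K4 and K5) and the arrays labelled wild type (W2 and W3) each measured total RNA from the abdominal aorta of male 12-week-old mice, collected 4 weeks after an operation in which CaPO4 was applied. CaPO4 crystals laid on the vessel are a way to provoke aneurysm-like injury, and both groups received it, so no group here is uninjured. SR-A1, the product of Msr1, is a scavenger receptor of macrophages. The labels name neither the strain, the deleted part of Msr1, nor whether an array held 1 animal or a pool, so a p-value here speaks to the spread between these samples alone, which may be technical. All levels are log2 signals relative to the 75th percentile of the array, and all differences are log2 values of K4 and K5 minus W2 and W3, ± the standard error that limma gives (n = 2 arrays in each group).

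Interferons of type I bind a receptor made of IFNAR1 and IFNAR2, whose kinases JAK1 and TYK2 activate STAT2. STAT2 and IRF9 act within a complex that binds the interferon-stimulated response element, a pair of GAAA repeats, in front of its target genes. The targets sense foreign nucleic acid, degrade or sequester viral RNA, block entry and budding, and adjust the pathway itself. Macrophages are among the cells that express many of them.

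The targeted gene gave signal on both arrays labelled SR-A1-/-, with K5 and W3 level on its brighter probe. The brighter Msr1 probe read -1.26 and -2.09 on K4 and K5, against -5.30 and -2.10 on W2 and W3, and it was well above background on K4, K5 and W3 only. A probe outside the deleted part checks nothing, and the allele is not named, so every direction given is that of the labels. The 75th percentile of the signal was 245 on K4 and 133 on K5, against 132 on W2 and 219.9 on W3, so each label had 1 array of high and 1 of low signal. Smooth muscle markers, which define the labelled tissue, were above background on every array in 6 of 6 cases. Of these 4 were lower on both K arrays, against 13.7% of all tested genes, and the median difference was -0.46. Their summed signal was 1074 times the 75th percentile on K4 and 1299.95 on K5, against 1875 on W2 and 1366 on W3, and its part in the results below was not tested.

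The 6 members below were chosen because they differed widely in how they read across the 4 arrays. Their promoter stretches are shown because they carry matches to the response element, which 12 of the 25 members with a promoter window lacked. They are from RefSeq on build GRCm38.p6, are given 5′ to 3′ on the gene's strand, and end at the base before the gene's start. Capitals mark matches to GAAANNGAAA or, on the other strand, TTTCNNTTTC, where matches that overlap run together.
Ifit3 (chr19:34583359-34583528, plus strand): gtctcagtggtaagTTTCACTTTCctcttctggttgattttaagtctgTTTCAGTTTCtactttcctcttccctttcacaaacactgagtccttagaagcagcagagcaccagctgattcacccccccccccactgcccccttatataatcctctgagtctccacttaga
Ifit1 (chr19:34640769-34640888, plus strand): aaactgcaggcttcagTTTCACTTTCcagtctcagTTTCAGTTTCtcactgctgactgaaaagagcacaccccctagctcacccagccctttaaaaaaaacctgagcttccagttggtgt
Isg15 (chr4:156200819-156200938, minus strand): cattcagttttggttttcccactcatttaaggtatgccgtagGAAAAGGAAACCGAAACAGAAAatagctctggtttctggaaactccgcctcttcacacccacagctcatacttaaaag
Oas1a (chr5:120907526-120907645, minus strand): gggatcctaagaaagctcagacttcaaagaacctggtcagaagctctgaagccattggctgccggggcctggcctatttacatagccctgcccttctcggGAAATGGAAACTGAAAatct
Rsad2 (chr12:26456453-26456582, minus strand): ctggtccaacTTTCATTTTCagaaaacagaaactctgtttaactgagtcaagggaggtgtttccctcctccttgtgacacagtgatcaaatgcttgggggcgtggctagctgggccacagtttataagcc
Bst2 (chr8:71537473-71537612, minus strand): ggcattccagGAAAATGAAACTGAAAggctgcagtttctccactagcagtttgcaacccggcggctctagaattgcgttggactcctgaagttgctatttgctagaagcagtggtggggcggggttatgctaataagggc

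Windows of 300 bases, 250 before and 50 after the gene start, were at hand for 25 of the 35 genes. The motif was found in 13 of them, 52% of those with a window, against 3.99% of the 27025 genes with a window in the whole table. Isg15 had 3 overlapping matches, and Ifit3, Ifit1, Oas1a, Bst2 and Ifitm3 had 2 each. In 12 genes, among them Irf7, Xaf1, Oasl1 and Oasl2, these letters were not in the window. The 12 tested members with a match had a median difference of 0.35, and the 12 tested members with a window and no match had a median of 0.54. A match describes the letters alone.

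Most members read higher on the arrays labelled SR-A1-/-, and no member passed the test across all genes. The difference was positive in 30 of the 34 tested members, with a median of 0.53, against -0.01 over all genes tested. Both K arrays were above both W arrays in 17 members, 50% of those tested, against 16.1% of all tested genes in that direction, and 0 members had the opposite arrangement, against 13.7%. Without W2, 18 members were higher without overlap, against 36.2% of all tested genes, and 6 had the opposite arrangement. The difference was then positive in 24. Without K4, 18 were higher, against 32.5% of all tested genes, and 4 had the opposite arrangement. With 1 array in a group either arrangement is easier to meet, and the share of all genes in the opposite one was not taken. On all 4 arrays, with a difference of at least 2-fold added, 6 members were left, 17.6% of those tested, against 3.96% of all tested genes. In limma with Benjamini-Hochberg adjustment 0 members and 0% of all tested genes had an adjusted p under 0.05. At an unadjusted p under 0.05 there were 5 members, all higher on the arrays labelled SR-A1-/- (14.7%), against 3.84% of all tested genes in that direction and 2.45% in the other. These 5 were Ifit3, Lgals3bp, Oas2, Irf7 and Usp18. This count changed whichever array was left out, and without W2 or without K4 not all members counted were higher. Such a fit leaves 1 array in a group, and the share over all tested genes was not taken for it. The changed counts are therefore no result about the members.

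**Figure D1:**
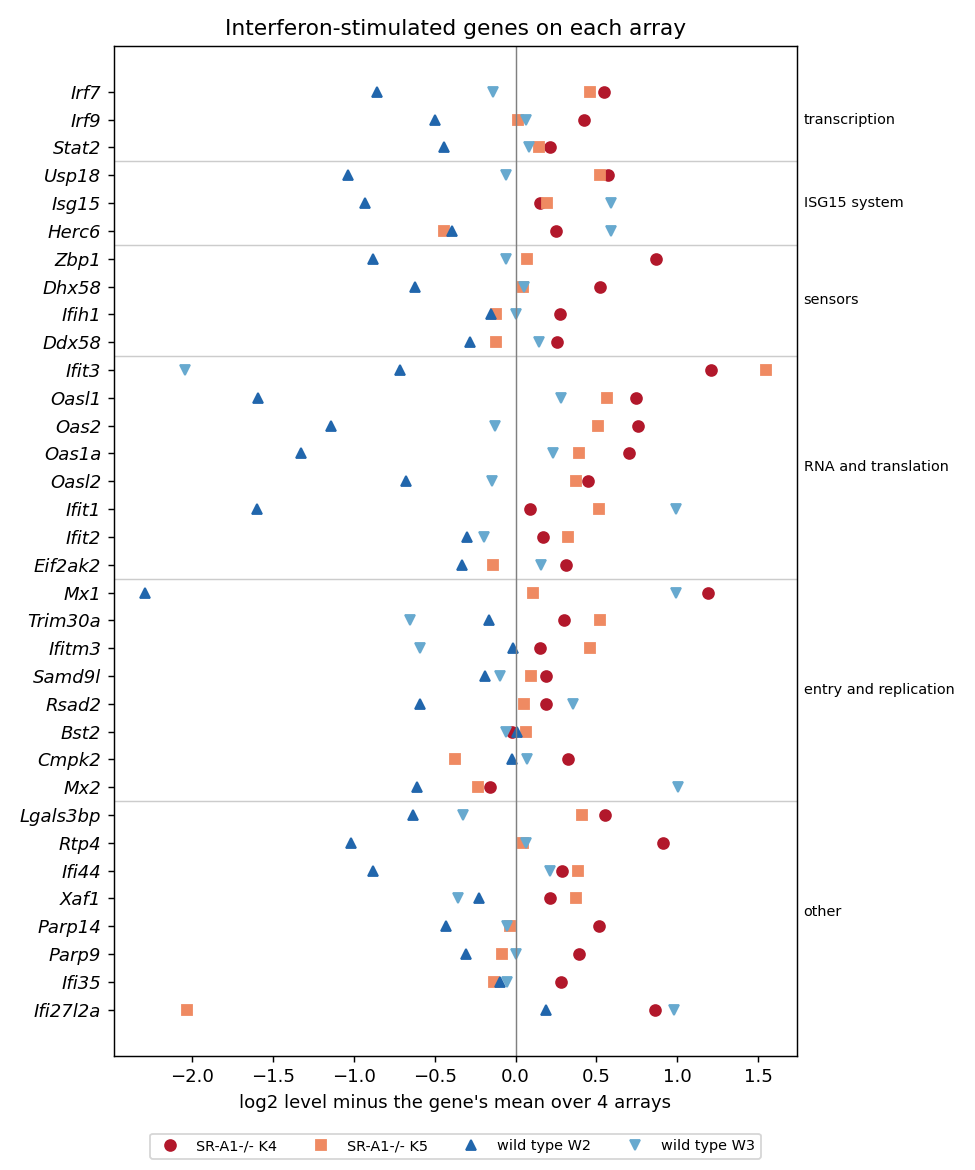
Level of each of the 34 tested interferon-stimulated genes on each array, as the log2 level minus that gene's mean over the 4 arrays, grouped by role. Red circles and orange squares are the arrays labelled SR-A1-/- (K4, K5), and dark and light blue triangles are the arrays labelled wild type (W2, W3); W2 is the lowest array in 25 genes and K4 the highest in 21.

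One array was often the low one. W2 was the lowest of the 4 arrays in 25 of the 34 tested members, against 21.7% of all tested genes. K4 was the highest in 21 members, K5 in 7 and W3 in 6. Of all 22498 tested genes, K4 was the highest in 5273, K5 in 5503 and W3 in 6073. Within the arrays labelled wild type, W3 read above W2 in 29 members, with a median difference of 0.55 (-0.03 over all genes). K4 read above W3 in 28 members with a median of 0.36, while K5 read above W3 in 18 members with a median of 0.04. Over all tested genes, W3 read above W2 in 48.0%, K4 above W3 in 50.7% and K5 above W3 in 51.4%. Without W2 the members' median difference was 0.20, and without W3 it was 0.69.

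Arrays of like signal level were also compared, 1 against 1 and so without a test. K5 minus W2, the arrays of low signal, had a median of 0.63 over the members, and 30 of 34 were positive. K4 minus W3, the arrays of high signal, had a median of 0.36, and 28 of 34 were positive. Over all tested genes the first difference was positive in 47.2% and the second in 50.7%. Both differences were positive in 26 members (76.5%), against 28.9% of all tested genes. Ifit1, Isg15, Mx2 and Rsad2 were positive in the first and negative in the second. Herc6 and Ifi27l2a were negative in both, and Cmpk2 and Ifi35 were negative in the first only.

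**Figure D2:**
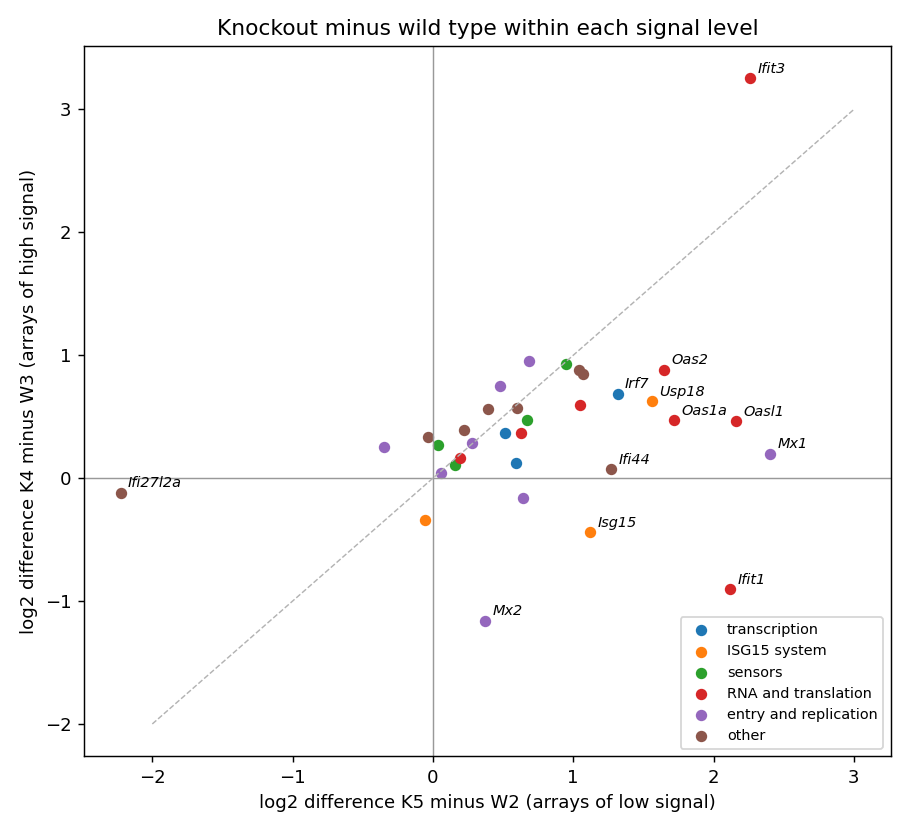
Difference of each tested member between the arrays of low signal (K5 minus W2, horizontal) and between the arrays of high signal (K4 minus W3, vertical), in log2 units, coloured by role; the dashed line marks equal differences. Most members sit above 0 on both axes, and Ifit3 lies far above the rest at 2.26 and 3.25. Ifit1, Isg15, Mx2, Rsad2, Herc6 and Ifi27l2a lie below 0 on the vertical axis.

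Among the transcription factors of the pathway, Irf7, which amplifies interferon production and is itself induced, stood out. It read 2.46 and 2.37 on K4 and K5, against 1.06 and 1.78 on W2 and W3. The groups did not overlap, and the difference was 1.002 ± 0.36 (limma adjusted p = 0.740). It was 0.64 without W2, and its second tested probe gave 0.84 ± 0.36. Irf9, the DNA-binding part of the interferon complex, read 2.30 and 1.89 on K4 and K5, against 1.37 and 1.94 on W2 and W3. Its groups overlapped, since K5 lay below W3, and its second tested probe had a difference of -0.23. Stat2, its partner, read 2.09 and 2.03 on K4 and K5, against 1.44 and 1.96 on W2 and W3, so that K5 and W3 differed by little.

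The ISG15 system split. Usp18, the protease that removes ISG15 from proteins and blunts receptor signalling, read 0.08 and 0.04 on K4 and K5, against -1.52 and -0.55 on W2 and W3. That is a difference of 1.09 ± 0.41 without overlap (limma adjusted p = 0.778), or 0.61 without W2 and 0.66 with normexp. Isg15, the ubiquitin-like modifier itself, read 1.46 and 1.50 on K4 and K5, against 0.38 and 1.90 on W2 and W3. W3 was its highest array and W2 its lowest, and the difference was 0.34 ± 0.55. Herc6, the main ligase for ISG15 in the mouse, was dim and had a difference of -0.20 ± 0.47, again with W3 highest.

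The 4 sensors of foreign nucleic acid had a median difference of 0.36. Of them 1 (25%) was higher on both K arrays, against 16.1% of all tested genes. Zbp1, which binds Z-form nucleic acid and can trigger necroptosis, read -0.91 and -1.71 on K4 and K5, against -2.66 and -1.84 on W2 and W3. The groups did not overlap, although K5 and W3 were close, and the difference was 0.94 ± 0.45 (limma adjusted p = 0.905). It was 0.37 with normexp, 0.53 without W2 and 0.54 without K4. A second Zbp1 probe, dim on W2, gave 1.58 ± 0.34. Dhx58, encoding the helicase LGP2, had a difference of 0.57 ± 0.38 with overlap, or 0.24 with normexp, 0.23 without W2 and 0.91 without W3. Ddx58, encoding the RNA sensor RIG-I, was among the flattest members, with 1.69 and 1.32 on K4 and K5, against 1.16 and 1.59 on W2 and W3. Its 4 tested probes had differences from 0.11 to 0.47. Ifih1, encoding the long-RNA sensor MDA5, had a difference of 0.15 ± 0.30.

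Genes that bind or degrade viral RNA held the member with the smallest p. Ifit3, which binds other IFIT proteins on foreign RNA, read 1.83 and 2.17 on K4 and K5, against -0.09 and -1.42 on W2 and W3. The groups were far apart, and the difference of 2.76 ± 0.51 is a 6.76-fold one (limma adjusted p = 0.357). Here W3, not W2, was the lowest array. Without W2 the difference was 3.42 and limma called it (adjusted p = 0.00955), its one W array taking the spread of K4 and K5. The probe lies on chromosome 19 at 34663105 to 34663164 (mm9), at base 1630 of transcript NM_010501.

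Of the other Ifit genes, Ifit2 was higher on both K arrays, as Ifit3 was, while Ifit1 and Ifit3b overlapped. Ifit1, which recognises RNA caps that lack methylation, read -1.80 and -1.37 on K4 and K5, against -3.49 and -0.90 on W2 and W3. W2 and W3 lay on either side of the K arrays, and the difference of 0.61 ± 0.88 turned to -0.69 without W2 and was 0.03 with normexp background correction. Ifit3b, a close copy of Ifit3 that is not a member, read -0.00 and 0.17 on K4 and K5, against -1.77 and 0.63 on W2 and W3, with W2 lowest and W3 highest as for Ifit1; it was chosen after its values were seen. Because the copies are close, how the signals divide between Ifit3 and Ifit3b is uncertain. Ifit2 read -0.68 and -0.52 on K4 and K5, against -1.15 and -1.04 on W2 and W3, a difference of 0.49 ± 0.28 without overlap.

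The oligoadenylate synthetases, which make the messenger that activates RNase L, and their relatives included 4 tested members. Each was higher on both K arrays, as were 16.1% of all tested genes. Of tested genes of the family outside the list, Oas1b overlapped, at a difference of 0.07 ± 0.27. Oas1c was higher on both K arrays, at 0.19 ± 0.28, with K5 and W3 nearly level at -1.24. Oas2 read 1.11 and 0.86 on K4 and K5, against -0.79 and 0.22 on W2 and W3, a difference of 1.27 ± 0.43 (limma adjusted p = 0.710), or 0.76 without W2. Oas1a read 1.63 and 1.32 on K4 and K5, against -0.40 and 1.16 on W2 and W3, a difference of 1.09 ± 0.57 that was 0.31 without W2 and 1.87 without W3. W3 lay close to K5 there, and W2 well below both. Oasl1, which in the mouse restrains translation of Irf7, read -0.22 and -0.40 on K4 and K5, against -2.57 and -0.69 on W2 and W3. Its difference was 1.31 ± 0.66 (limma adjusted p = 0.931), and it was 2.25 without W3, where limma called it (adjusted p = 0.0477), its one W array taking the spread of K4 and K5. It was 0.58 with normexp and 0.37 without W2. Oasl2 read 0.95 and 0.87 on K4 and K5, against -0.18 and 0.35 on W2 and W3, a difference of 0.82 ± 0.32. Eif2ak2, encoding the kinase PKR that halts translation, differed by 0.18 ± 0.34 with overlap.

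**Figure D3:**
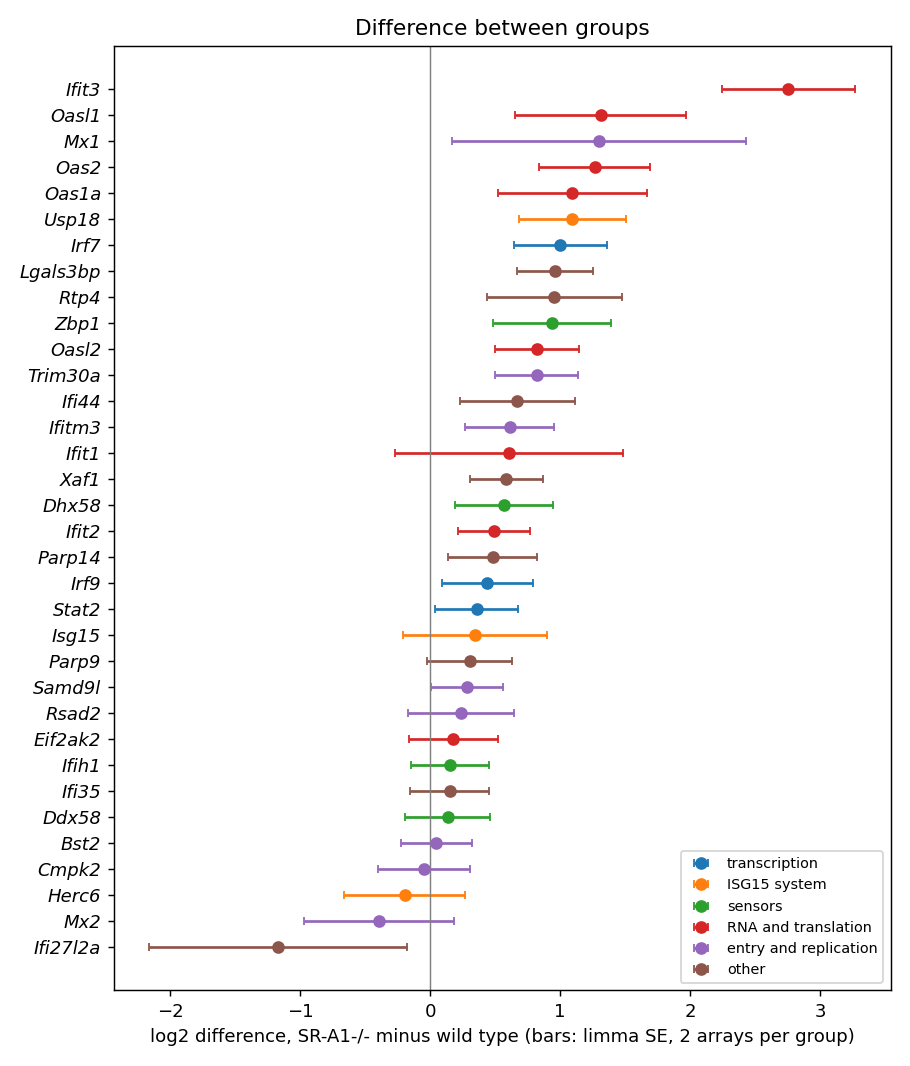
Difference of each of the 34 tested members in log2 units, arrays labelled SR-A1-/- minus arrays labelled wild type, ordered from highest to lowest and coloured by role; bars are limma standard errors (n = 2 arrays in each group). Ifit3 heads the order at 2.76, 30 members lie above 0, and Ifi27l2a is at the other end at -1.17.

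Members that act on viral entry and replication were mixed. Trim30a, a TRIM protein that dampens inflammatory signalling in the mouse, read 0.55 and 0.77 on K4 and K5, against 0.08 and -0.41 on W2 and W3, a difference of 0.82 ± 0.32 (limma adjusted p = 0.793). Its other tested probes gave 0.24 ± 0.28 and 0.54 ± 0.73, and K4 was the lowest array on the last. Ifitm3, which blocks fusion of virus with the endosome, read 5.53 and 5.83 on K4 and K5, against 5.36 and 4.78 on W2 and W3. The groups did not overlap, and the difference was 0.61 ± 0.34, or 0.32 without W3. On the brightest probe of Trim30a and of Ifitm3, W3 was the lowest array, as for Ifit3. Samd9l, an antiviral restriction factor, differed by 0.28 ± 0.27 without overlap.

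Bst2, the tetherin that holds budding virus at the membrane, read 1.71 and 1.80 on K4 and K5, against 1.74 and 1.67 on W2 and W3. All 4 arrays were close, at a difference of 0.05 ± 0.27, although its promoter stretch holds 2 matches. Cmpk2, a nucleotide kinase, read -0.34 and -1.04 on K4 and K5, against -0.69 and -0.60 on W2 and W3, so K4 and K5 lay on either side of the W arrays. Its neighbour Rsad2, encoding viperin, differed by 0.24 ± 0.41, with W3 highest. Mx2, a dynamin-like GTPase, read -0.94 and -1.02 on K4 and K5, against -1.39 and 0.22 on W2 and W3. Mx1, the related nuclear GTPase, read -2.29 and -3.37 on K4 and K5, against -5.77 and -2.49 on W2 and W3, and it was not well above background on W2. Its difference of 1.30 ± 1.13 was 0.55 with W2 raised to the lowest signal called above background on that array, and 0.07 with normexp background correction. Without W3 it was 2.94 and limma called it (adjusted p = 0.0334), on W2 alone, where the probe was dim.

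Among the remaining members, Lgals3bp, a secreted galectin-binding glycoprotein, read 3.79 and 3.64 on K4 and K5, against 2.60 and 2.91 on W2 and W3. The groups did not overlap, at a difference of 0.96 ± 0.29 (limma adjusted p = 0.658), but a second tested probe gave 0.03 ± 0.48. Rtp4, a chaperone of membrane receptors, read 1.54 and 0.68 on K4 and K5, against -0.39 and 0.70 on W2 and W3, so that K5 and W3 were level and the groups overlapped. Its difference was 0.96 ± 0.52, or 0.41 without W2, 1.50 without W3 and 0.53 without K4. Parp14 and Parp9, ADP-ribosyltransferases, differed by 0.48 ± 0.34 and 0.30 ± 0.33. Ifi44, not well above background on W2, differed by 0.67 ± 0.44. That value was 0.60 with W2 raised as for Mx1, 0.07 with normexp, 0.12 without W2 and 1.22 without W3. Ifi35 read 4.10 and 3.69 on K4 and K5, against 3.73 and 3.77 on W2 and W3, one of the 4 smallest differences at 0.15 ± 0.30.

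Ifi27l2a, a small hydrophobic interferon-induced protein, was the member with the most negative difference, at -1.17 ± 0.99. It read 6.92 on K4 and 4.03 on K5, against 6.25 and 7.04 on W2 and W3, so that K5 alone was low. Without K5 the difference was 0.28. On K5 the adipocyte markers Adipoq, Cfd, Plin1 and Fabp4 were also at their lowest, while Lep, the fifth of the list, was at its highest there. The summed signal of the 5 was 522 times the 75th percentile on K4 and 28.5 on K5, against 339.7 on W2 and 578 on W3. Plin1 was not well above background on K5. The part of adipose tissue in the Ifi27l2a values was not tested. In bulk samples, fewer cells of a type and less RNA per cell cannot be told apart.

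Xaf1, which binds and counters the apoptosis inhibitor XIAP, gave the smallest p of any tested probe, on one that the rule did not pick. The brightest probe, at base 562 of NM_001037713 (chromosome 11, 72122169 to 72122228 on mm9), read 0.67 and 0.83 on K4 and K5, against 0.23 and 0.10 on W2 and W3. That is a difference of 0.59 ± 0.28 without overlap (limma adjusted p = 0.900). The probe at base 2537 of the same transcript, starting 5006 bases further along the chromosome (72127175 to 72127234), read 2.98 and 2.82 on K4 and K5, against -3.74 and -3.97 on W2 and W3. Arrays of each label lay close together and the labels lay far apart, with the probe above background on all 4 arrays. This probe was singled out after its values were seen.

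In a limma fit of all 35107 tested probes the difference at base 2537 was 6.75 ± 0.28, which is 108-fold (adjusted p = 0.0491), and it was 1 of 3 probes called (0.00855% of the tested probes). It ranked 4 by size of difference. The call was kept under 8 of 11 alternatives. It was lost without K4 (adjusted p = 0.174), without K5 (adjusted p = 0.290) and with signal level as a block (adjusted p = 0.165), at differences of 6.67, 6.83 and 6.75. On W2 and W3 the probe read -3.74 and -3.97, where the lowest signals called above background were -4.26 and -4.99. The fold thus rests on low W levels, and with normexp background correction the difference was 4.26. The third Xaf1 probe was not well above background on any array. Both probes above are assigned to NM_001037713 in the array annotation, and which transcripts each one detects was not tested.

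**Figure D4:**
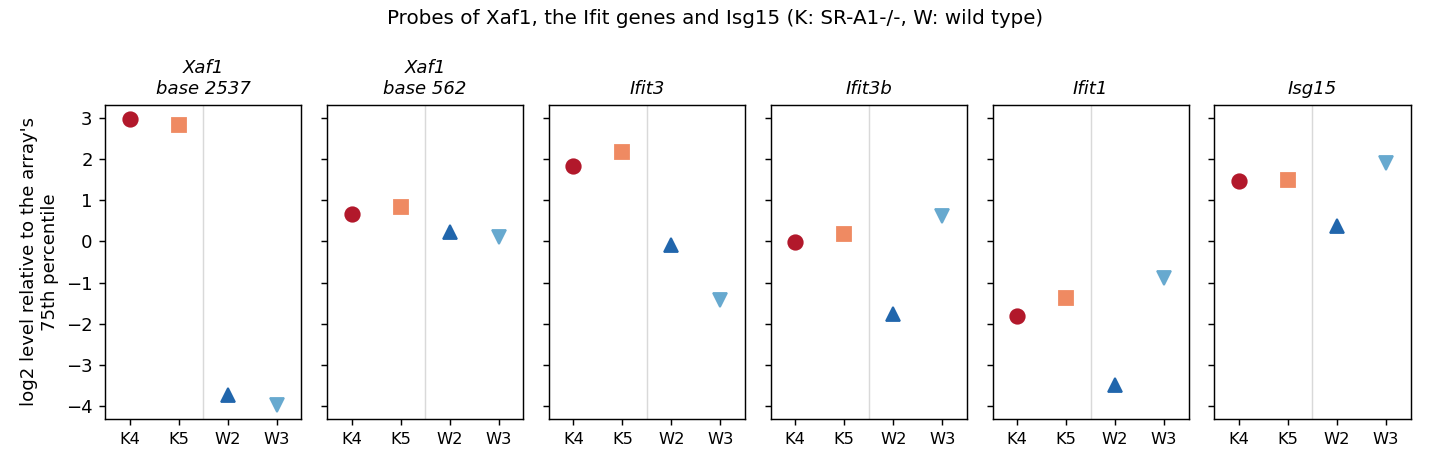
Log2 level relative to the array's 75th percentile (vertical) on K4 and K5, labelled SR-A1-/-, and on W2 and W3, labelled wild type (horizontal), for both Xaf1 probes above background and for Ifit3, Ifit3b, Ifit1 and Isg15. The Xaf1 probe at base 2537 separates the labels at 2.98 and 2.82 against -3.74 and -3.97, Ifit3 separates them less widely, and W2 and W3 lie on either side of K4 and K5 for Ifit3b, Ifit1 and Isg15.

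Several members had more than 1 tested probe, 15 in all. The probes pointed the same way in 13 of these and both ways in Ifih1 and Irf9. Of the 53 tested member probes, the Xaf1 probe at base 2537 was the 1 called. Oasl1 had 2 tested probes with similar differences, 1.31 ± 0.65 and 1.46 ± 0.66, but the second was not well above background on W2.

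Upstream of these genes the ligands were near background. Of 16 listed interferon genes 14 were on the array and 6 were tested, and Ifnb1 was not among them, since no probe of it passed the filter. The 6 tested ligands had a median difference of -0.11, and 0 had an unadjusted p under 0.05 in limma. Ifna1, with the smallest p, read -4.22 and -4.30 on K4 and K5, against -3.17 and -3.87 on W2 and W3, and was dim on K5. It was the 1 ligand lower on both K arrays, as were 13.7% of all tested genes. The receptor chain gene Ifnar1 read 3.04 and 3.73 on K4 and K5, against 3.55 and 2.97 on W2 and W3, with overlap. Ifnar2 read 2.92 and 2.48 on K4 and K5, against 1.83 and 2.36 on W2 and W3, a difference of 0.61 ± 0.35.

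The kinases of the receptor were measured too. Jak1 read 3.44 and 3.58 on K4 and K5, against 2.83 and 2.57 on W2 and W3, a difference of 0.81 ± 0.29 (limma adjusted p = 0.740). Tyk2 read -0.77 and 0.14 on K4 and K5, against -0.28 and -1.06 on W2 and W3, with overlap. Of 12 tested genes of upstream sensing, 5 (41.7%) were higher on both K arrays and 0 lower, against 16.1% and 13.7% of all tested genes. The 5 were led by the RNA receptor gene Tlr7 at 0.83 ± 0.31, Irf5 at 1.07 ± 0.48 and Mb21d1, encoding cGAS, at 0.49 ± 0.32. Of 8 tested feedback inhibitors, 4 (50%) were higher on both K arrays and 1 lower, against the same shares of all tested genes. The one that was lower was Socs1, an inhibitor of JAK kinases, at -0.52 ± 0.35, and the leading others were Samhd1 at 0.75 ± 0.33 and Ptpn6 at 0.88 ± 0.46.

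Another 22 interferon-stimulated genes outside the list were tested. Of these 10 (45.5%) were higher on both K arrays and 1 was lower, against 16.1% and 13.7% of all tested genes. The median difference was 0.19, against 0.53 for the members. The nuclear body gene Sp100 read 0.47 and 0.37 on K4 and K5, against -0.43 and -0.51 on W2 and W3, a difference of 0.89 ± 0.27 (limma adjusted p = 0.666). Ifi204, a DNA-binding member of the HIN family, read 4.11 and 4.20 on K4 and K5, against 2.60 and 3.38 on W2 and W3, a difference of 1.17 ± 0.37. Ddx60, a helicase, differed by 1.02 ± 0.39. None of the lists above had a gene past an adjusted p of 0.05 in limma.

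Genes tied to interferon gamma were set beside them. Ifng itself was not tested, as no probe of it passed the filter. Of 14 tested genes 8 (57.1%) were higher on both K arrays and 1 lower, against 16.1% and 13.7% of all tested genes. The median difference of the 14 was 0.60. The regulator of MHC class II, Ciita, read 1.59 and 1.58 on K4 and K5, against -0.37 and -0.50 on W2 and W3, and the chemokine gene Cxcl9 read -0.00 and -1.70, against -3.57 and -2.68. Tap1 differed by 0.91 ± 0.34. The difference between this list and the members was not tested.

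Macrophage markers were read beside the members. Of 8 tested markers 4 (50%) were higher on both K arrays and 0 lower, against 16.1% and 13.7% of all tested genes. W2 was the lowest array in 21.7% of all tested genes and in 6 of these 8 markers, whose median difference was 1.16. Their summed signal was 263 times the 75th percentile on K4 and 269.6 on K5, against 162.5 on W2 and 337 on W3. Itgam, read by 1 bright probe while its other probe was near background, made up 44.3 on K4 and 102 on K5, against 103 on W2 and 56.2 on W3. Without it the sum was 219 on K4 and 167 on K5, against 59.8 on W2 and 281 on W3. None was below background on any array. Fcgr1 read 0.50 and -0.69 on K4 and K5, against -1.94 and -1.99 on W2 and W3, and Mrc1 read 3.43 and 2.51, against 1.39 and 1.47. Csf1r differed by 1.18 ± 0.33, and Adgre1, also higher on both K arrays, by 1.82 ± 0.68. The groups overlapped for Cd14, Cd68, Lyz2 and Itgam, at 0.82 ± 0.60, 1.15 ± 1.16, 0.37 ± 0.88 and -0.17 ± 0.55. W3 was the highest array for Cd68 and Lyz2. The part of macrophage number in the members' values was not tested.

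Markers of other cells had other orders, and their part was likewise not tested. Of 5 markers of plasmacytoid dendritic cells, strong producers of type I interferon, 1 (20%) was higher on both K arrays, near the 16.1% of all tested genes. The list's median was -0.07. Its summed signal was 80.4 on K4 and 138 on K5, against 139.7 on W2 and 96.5 on W3. Most of that came from 1 bright Siglech probe, while the other Siglech probes were near or below background. Ccr9 was not above background on W2, nor Klk1 on W3 and K5. Of 5 tested T and NK cell markers 2 (40%) were higher on both K arrays, against 16.1% of all tested genes. These were Cd3g at 1.31 ± 0.36 and Cd3d at 0.81 ± 0.29. Cd3g read -4.12 and -4.76 on W2 and W3, near the lowest signals called above background there, -4.26 and -4.99. Cd3e, Klrb1c and Cd4 overlapped, at 0.22 ± 0.43, 0.13 ± 0.39 and -0.09 ± 0.41, and Cd8a and Ncr1 did not pass the filter. The summed signal of the 5 tested markers was 2.42 on K4 and 3.38 on K5, against 3.45 on W2 and 1.98 on W3. Skeletal muscle markers were lower on both K arrays in 3 of 5 cases, against 13.7% of all tested genes. The summed signals of these markers were 87.7 on K4 and 156 on K5, against 789 on W2 and 248 on W3.

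Neutrophil markers differed among themselves. Ly6g read 0.03 and 0.73 on K4 and K5, against -4.67 and -1.56 on W2 and W3, while S100a9 read -1.33 and -2.50, against -2.83 and 1.63. Ly6g and S100a8 were not above background on W2, and Mmp8 was not above it on W2 or W3. W3 was the highest array for S100a8 and S100a9, K5 for Ly6g and Mmp8, and W2 for Csf3r. The part of neutrophils in the members' values was not tested. The summed signal of the 5 tested neutrophil markers was 115 on K4 and 193 on K5, against 192 on W2 and 136 on W3, nearly all of it from 1 Csf3r probe. Without Csf3r the sum was 1.59 on K4 and 2.002 on K5, against 0.264 on W2 and 4.25 on W3. Of 5 B cell markers 0 were higher on both K arrays, against 16.1% of all tested genes. Ms4a1 was the 1 lower, at -0.90 ± 0.42, against 13.7% of all tested genes in that direction.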

How the data were processed

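Each of 4 one-colour Agilent arrays measured 1 RNA sample. Agilent Feature Extraction 12.0.3.1 produced each intensity, per the file headers, by background subtraction and detrending within the array, with no scaling between arrays; probe positions are on mm9. Per the submitters' processing notes, version 10.7 of that program and limma were used, with no role given. The authors' deposited values are log2 levels whose columns have nearly the same distribution; the method and any centring are not given in the sources used here. Flags in the other columns are 0 or 1 per the file headers.

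The log2 signal minus the array's 75th percentile was used, with outlier spots left out and repeated spots averaged; 0 spots were saturated, and 57.6% to 62.6% of 56605 probes were well above background. The number of arrays limits the precision. Groups were compared over all genes tested with limma 3.58.1 in R 4.3.3 (two-sided, Benjamini-Hochberg, adjusted p under 0.05). The fit was also run on simulated data. The differences added there were larger than that of every member but Ifit3, so the simulation does not cover differences as small as theirs. Genes named in full were the 14 members with the smallest p, the 4 with the smallest difference and those not tested. Also named were the receptor and kinase genes, Ifnb1 and Msr1, and up to 3 genes with the smallest p in each other list. Stat2, Irf9, Isg15, Ifit1, Mx1, Mx2, Ifi27l2a, S100a8, Adgre1, Cd14, Cd68, Lyz2, Itgam, Cd3e, Klrb1c and Cd4 were added after their values were seen. Members and lists were chosen with earlier results of these data known. Alternatives were quantile and median scaling, normexp with an offset of 50, other filters, the mean of probes, the deposited values, an intensity trend, outlier spots kept, signal level as a block, and each array left out. The fit of all probes was added after the data were seen. One pathway gene is not reported here.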

Additional observations from a re-analysis of the deposited data

How the results depend on the processing

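No paired analysis was possible because the labels give the groups different replicate numbers. Under the 10 alternatives that kept all arrays, 0 members were called, the members' median difference lay between 0.31 and 0.53, and 11 to 19 members were higher on both arrays labelled SR-A1-/-, against 11.1% to 17.7% of all tested genes. Median scaling gave the 11 (13.8% of all tested genes). Members at an unadjusted p under 0.05 in limma were 5, with 2 under median scaling, 3 with no filter and 12 with signal level as a block. Of all tested genes limma called 0, against 21 with normexp, 8 with quantile scaling, with the deposited values or with no filter, 7 with median scaling, 5 with an intensity trend, 260 without W2 and 371 without W3. With each array left out in turn, 0 to 2 members were called, the median lay between 0.20 and 0.69, and 18 to 29 members did not overlap in that direction, against 30.8% to 36.2% of all tested genes, since fewer arrays are compared. Of 485 comparisons of single differences with an alternative, 16 reversed, 3 became called and 3 lost the call. Bst2 was -0.0049 with median scaling. The other reversals came from leaving out 1 array, and the lowest and highest values were -0.079 and 0.35 for Ddx58, -0.066 and 0.42 for Eif2ak2, -0.69 and 1.90 for Ifit1, -0.42 and 1.10 for Isg15, -0.34 and 2.94 for Mx1, and -0.23 and 0.71 for Rsad2. They were -0.69 and 0.29 for Herc6, -1.20 and 0.41 for Mx2, -0.057 and 0.35 for Ifi35, -0.042 and 0.35 for Ifih1, -0.40 and 0.30 for Cmpk2, and -2.62 and 0.28 for Ifi27l2a. The mean of its probes gave Xaf1 a difference of 3.67 (limma adjusted p = 0.0953). A lone array left in a group is assumed to vary like the other group. Levels near background are limited by signal over background.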
